A study of Mus musculus with 18 samples.

Results

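The Notch receptors and their canonical ligands were followed across 18 expression arrays of mouse embryonic stem (ES) cells, embryonic fibroblasts and embryonic brain. The 9 members were chosen by name: the receptors Notch1, Notch2, Notch3 and Notch4, and the ligands Jag1, Jag2, Dll1, Dll3 and Dll4. All 9 were among the 17091 genes of the table, each with 1 probe set. The groups were wild-type (control) ES cells, Ccnc-/- ES cells, wild-type fibroblasts, Ccnc-/- fibroblasts, and wild-type and Ccnc-/- brain at embryonic stage E18.5, with 3 arrays per group that the labels call biological replicates. Ccnc encodes cyclin C, the cyclin of the Mediator kinase module, which holds the kinase CDK8 or CDK19. The labels do not state how the gene was inactivated, whether a cell line is 1 clone, or the sex of the embryos, and no treatment is named in any group. Nothing states that the replicates came from separate cultures or litters beyond that label, so the p-values measure the spread between these arrays.

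Notch receptors are transmembrane proteins that are activated by ligands of the Jagged and Delta-like families on a neighbouring cell. Ligand binding leads to cleavage by an ADAM protease and by gamma-secretase, and the freed intracellular domain enters the nucleus, binds RBPJ with a Mastermind co-activator and switches on genes such as the Hes and Hey repressors. In the embryonic brain the pathway is known for keeping neural progenitors from differentiating, and cyclin C with its kinase is known to phosphorylate the Notch intracellular domain, which marks it for degradation. The arrays measured RNA of these genes and not the proteins, their cleavage or their phosphorylation.

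Values are log2 signals as deposited by the authors after robust multi-array average (RMA) normalization, so a difference of 1 is a 2-fold difference. Each probe set was compared only with itself across arrays, since different probe sets bind with different strength. A gene was called changed when the limma test, adjusted over all 17091 genes, gave an adjusted p below 0.05. Within each cell type, the highest Ccnc value of the knockout arrays lay below the lowest of the controls. Knockout minus control for Ccnc was -2.37 ± 0.19 in ES cells (log2 difference ± standard error, SE, n = 3 and 3, adjusted p = 0.0247), -1.29 ± 0.05 in fibroblasts (adjusted p = 6.77e-06) and -0.69 ± 0.15 in brain (adjusted p = 0.627, and 0.0426 with the replicate number as a block). The tissue labels were checked against markers: all 7 measured ES cell markers were higher in control ES cells than in control fibroblasts, and all 8 fibroblast markers were higher in fibroblasts than in ES cells or brain, and all 8 neuron markers were higher in brain than in fibroblasts. The median standard deviation (SD) per gene within a group ran from 0.064 in control fibroblasts to 0.164 in knockout ES cells. In whole tissue or mixed cultures, fewer cells of a type and less RNA per cell cannot be told apart. Knockout ES cell array 1 stood apart, with a mean of 9.95 over 10 markers of extraembryonic endoderm against 7.36 to 7.72 in the other ES cell arrays, knockout arrays 2 and 3 included.

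**Figure D1:**
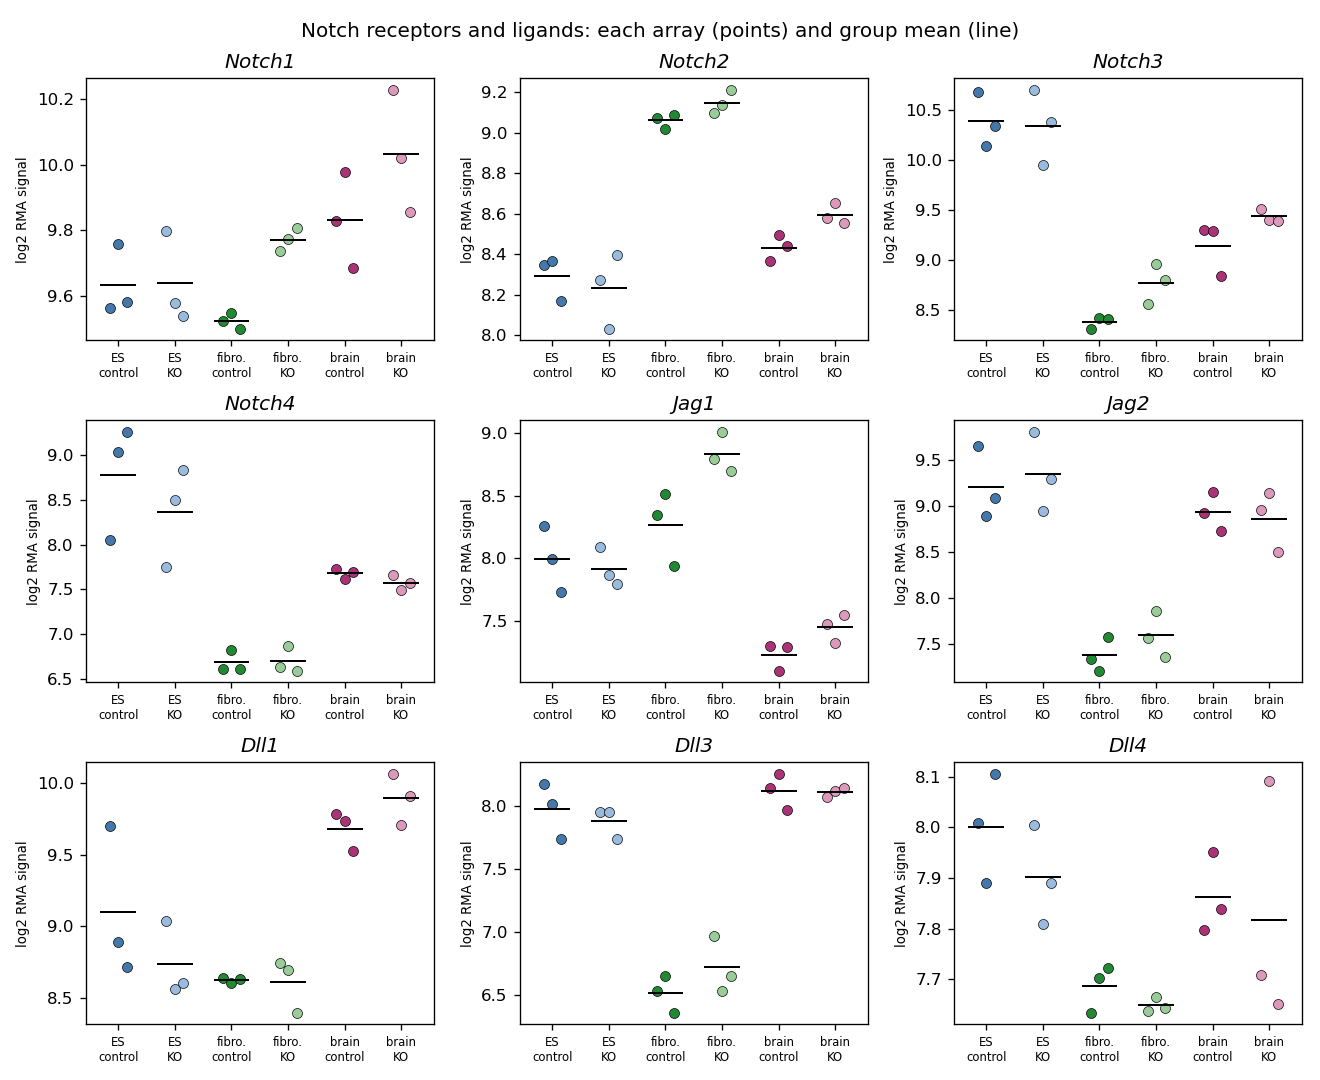
Log2 RMA signal (y axis, its range set per gene) of each of the 9 members in the 6 groups (x axis), with 1 point per array in replicate order and a line at the group mean. Notch3, Notch4, Jag2 and Dll3 sat lowest in fibroblasts, Notch2 and Jag1 reached their highest values there, and in fibroblasts the knockout arrays of Notch1, Notch2, Notch3 and Jag1 all lay above the control arrays.

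The levels in control arrays were compared first. Among the receptors, Notch3 and Notch4 were highest in ES cells, intermediate in brain and lowest in fibroblasts, whereas Notch2 was highest in fibroblasts and Notch1 differed little. Notch3, a receptor best known from vascular smooth muscle, read 10.68, 10.14 and 10.34 in the 3 control ES cell arrays, 9.30, 9.30 and 8.84 in brain and 8.31, 8.42 and 8.41 in fibroblasts. The 3 groups did not overlap. ES cells exceeded fibroblasts by 2.01 ± 0.15 (SE, 4.03-fold, limma adjusted p = 7.30e-07), brain exceeded fibroblasts by 0.76 ± 0.15 (1.70-fold, adjusted p = 0.00118), and the difference of brain from ES cells was -1.25 ± 0.15 (2.37-fold lower, adjusted p = 2.31e-05). Notch4, a receptor best known from endothelium, read 8.06, 9.04 and 9.26 in control ES cells, 7.73, 7.62 and 7.69 in brain and 6.61, 6.82 and 6.61 in fibroblasts. The order was the same as for Notch3, again without overlap, although ES cell array 1 lay about 1 log2 unit below the other 2. The differences were 2.10 ± 0.24 for ES cells over fibroblasts (4.28-fold, adjusted p = 2.15e-05), 1.0 ± 0.24 for brain over fibroblasts (2.0-fold, adjusted p = 0.00438), and -1.10 ± 0.24 for brain against ES cells (adjusted p = 0.00188).

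Notch2, a receptor expressed in many tissues, ran the other way. It read 9.07, 9.02 and 9.09 in control fibroblasts, 8.37, 8.49 and 8.44 in brain and 8.35, 8.37 and 8.17 in ES cells. Every fibroblast array lay above every array of the other groups, while brain and ES cells overlapped. Relative to fibroblasts, Notch2 differed by -0.77 ± 0.09 in ES cells (1.70-fold lower, adjusted p = 1.56e-05) and by -0.63 ± 0.09 in brain (1.55-fold lower, adjusted p = 6.69e-05). Brain and ES cells differed by 0.14 with a 95% interval from -0.05 to 0.33 (adjusted p = 0.168). Notch1, the receptor most studied in lymphocyte and neural development, had the narrowest range of the receptors: 9.83, 9.98 and 9.69 in brain, 9.56, 9.76 and 9.58 in ES cells and 9.52, 9.55 and 9.50 in fibroblasts. The brain and fibroblast values did not overlap, and ES cell array 2 reached into the brain range. Brain exceeded fibroblasts by 0.31 ± 0.09 (1.24-fold, adjusted p = 0.0159). That call was lost without fibroblast array 3 (adjusted p = 0.0552) or brain array 2 (adjusted p = 0.0648). The other 2 Notch1 differences did not pass: 0.11 for ES cells over fibroblasts (95% interval -0.10 to 0.32, adjusted p = 0.330) and 0.20 for brain over ES cells (95% interval -0.01 to 0.41, adjusted p = 0.0830). With 1 array left out, the adjusted p of brain over ES cells ran from 0.0238 to 0.276, so whether it passed depended on the array.

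Among the ligands, Jag2, Dll3 and Dll1 were higher in control brain than in control fibroblasts and Jag1 was lower. Jag1 and Jag2 are the 2 Jagged ligands of mammals, and fibroblasts stood lowest in Jag2 and had the highest mean in Jag1. Jag2 read 9.65, 8.89 and 9.08 in ES cells, 8.93, 9.15 and 8.72 in brain and 7.33, 7.21 and 7.58 in fibroblasts. The fibroblast arrays lay well below all others, by 1.84 ± 0.19 against ES cells (3.57-fold, adjusted p = 7.81e-06) and by 1.56 ± 0.19 against brain (2.94-fold, adjusted p = 2.51e-05). Brain and ES cells overlapped, with a difference of -0.28 (95% interval -0.70 to 0.14, adjusted p = 0.204). Jag1 read 8.34, 8.51 and 7.94 in fibroblasts, 8.26, 8.0 and 7.73 in ES cells and 7.30, 7.11 and 7.30 in brain. Brain was lowest without overlap, with differences of -1.03 ± 0.16 from fibroblasts (2.05-fold lower, adjusted p = 0.000210) and -0.76 ± 0.16 from ES cells (1.69-fold lower, adjusted p = 0.00152). ES cells and fibroblasts overlapped (difference -0.27, 95% interval -0.63 to 0.09, adjusted p = 0.169), and this difference passed without ES cell array 1 (-0.40, adjusted p = 0.0491) or fibroblast array 3 (-0.43, adjusted p = 0.0358).

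Of the Delta-like ligands, Dll3, which in other work has acted within the same cell rather than activating a neighbour, read 8.17, 8.01 and 7.74 in ES cells, 8.14, 8.25 and 7.97 in brain and 6.53, 6.66 and 6.36 in fibroblasts. It was more than 1 log2 unit lower in every fibroblast array than in any other control array. The differences were 1.45 ± 0.13 for ES cells (2.74-fold, adjusted p = 2.55e-06) and 1.60 ± 0.13 for brain (3.03-fold, adjusted p = 8.93e-07), and brain and ES cells differed by 0.15 (95% interval -0.14 to 0.43, adjusted p = 0.321). Dll1, the ligand of newborn neurons and of the presomitic mesoderm, read 9.78, 9.74 and 9.52 in brain, 9.70, 8.89 and 8.71 in ES cells and 8.64, 8.60 and 8.63 in fibroblasts. ES cell array 1 reached into the brain range and the other 2 lay close to the fibroblasts. Brain exceeded fibroblasts by 1.06 ± 0.21 (2.08-fold, adjusted p = 0.00100). Brain exceeded ES cells by 0.58 ± 0.21 (1.49-fold, adjusted p = 0.0264), a difference that was 0.88 without ES cell array 1 (adjusted p = 1.82e-05) and did not pass without ES cell array 2 or 3 or brain array 1 or 2 (adjusted p from 0.0720 to 0.109). ES cells and fibroblasts differed in Dll1 by 0.48 (95% interval 0.02 to 0.94, adjusted p = 0.0642), which fell to 0.18 without ES cell array 1 and passed without ES cell array 2 (adjusted p = 0.0486) or 3 (adjusted p = 0.0146). Dll4, the ligand of sprouting endothelium, moved least: its 9 control values lay between 7.63 and 8.10, and only the excess of ES cells over fibroblasts passed (0.32 ± 0.09, 1.24-fold, adjusted p = 0.00949).

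Counted together, 5 members were higher and 1 lower in control ES cells than in control fibroblasts, where 63.5% of all genes were called (39.8% higher, 23.8% lower). In brain against fibroblasts 6 were higher and 2 lower, where 60.3% of all genes were called (25.1% higher, 35.2% lower). In brain against ES cells 1 was higher and 3 lower, where 73.7% of all genes were called (25.9% higher, 47.8% lower). A share of called members close to that of all genes is no result about the members. Fibroblasts held the lowest control mean for 7 of the 9 members, against 26.6% of all genes, and the highest for Notch2 and Jag1.

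The scaling of the arrays touched the comparison of brain with ES cells. The median difference of all genes, brain minus ES cells, was -0.22 in the deposited values, and quantile normalization moved that median by 0.15. Relative to the median of all genes, Notch1 was 0.42 and Notch2 0.36 higher in brain, and after quantile normalization their differences of 0.50 (adjusted p = 0.000637) and 0.25 (adjusted p = 0.0254) passed the test. Over all genes the split of calls moved from 4435 higher and 8166 lower to 5527 higher and 6642 lower. In ES cells against fibroblasts, where the median moved by -0.10, the small difference of Notch1 changed sign to -0.03. The other called differences between control cell types named above kept their direction and their call under quantile normalization.

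The same contrasts were tested in the knockout arrays, which the control comparison did not use. Same-numbered control and knockout arrays deviated together in fibroblasts and brain, so the knockout arrays are not a wholly independent set. ES cells exceeded fibroblasts by 1.57 in Notch3 (adjusted p = 1.95e-05), by 1.67 in Notch4 (adjusted p = 8.41e-05), by 1.75 in Jag2 (adjusted p = 7.33e-05) and by 1.16 in Dll3 (adjusted p = 1.24e-05), and Notch2 differed by -0.91 (adjusted p = 2.33e-05). Jag1, which had not passed in the controls, differed by -0.91 between knockout ES cells and knockout fibroblasts (adjusted p = 5.84e-05). Dll4, which had passed in the controls, did not pass (0.25, adjusted p = 0.0938). In all, 4 members were higher and 2 lower (58.3% of all genes called, 34.4% higher and 23.9% lower). Brain against fibroblasts gave 5 higher and 2 lower (59.3% of all genes called, 24.7% higher and 34.7% lower), among them Jag1 at -1.38 (adjusted p = 1.78e-06) and Dll3 at 1.39 (adjusted p = 2.12e-06), while Notch1, called in the controls, did not pass (0.26, adjusted p = 0.0632). Brain against ES cells gave 3 higher and 3 lower (71% of all genes called, 27.6% higher and 43.5% lower), and here Dll1 was higher by 1.16 (adjusted p = 4.59e-05), Notch1 by 0.39 (adjusted p = 0.00827) and Notch2 by 0.36 (adjusted p = 0.00901), of which the latter pair had not passed in the controls.

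**Figure D2:**
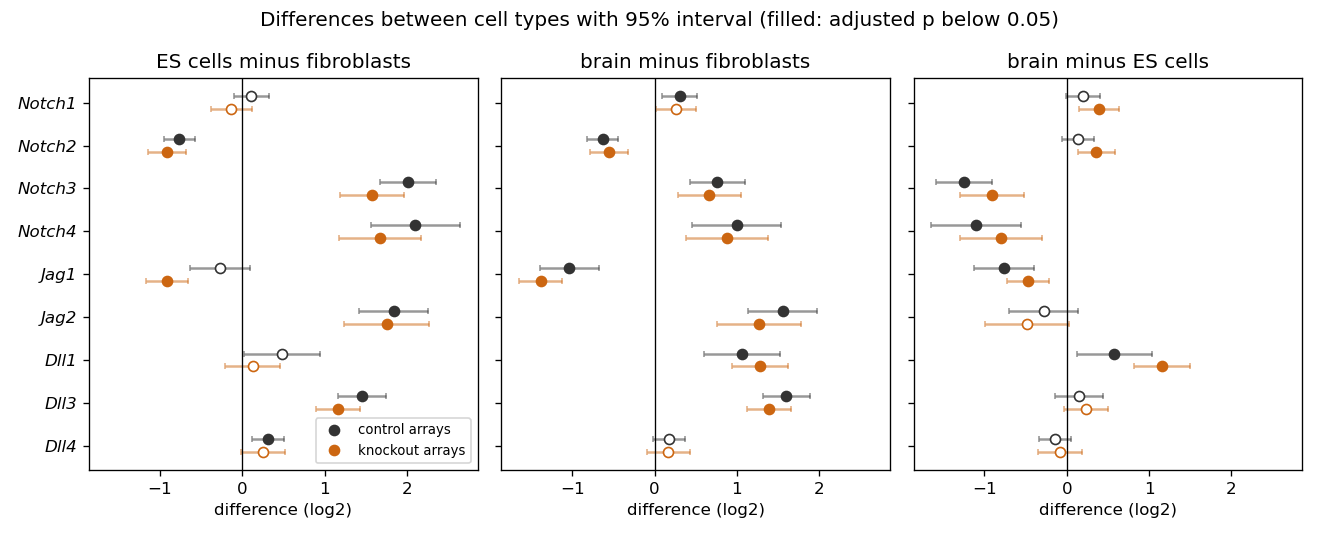
Difference between 2 cell types (x axis, log2) for each member (y axis), in control arrays (black) and in knockout arrays (orange), with the 95% interval of the limma fit and filled points where the adjusted p was below 0.05. Notch3, Notch4, Jag2 and Dll3 lay far right of 0 for ES cells over fibroblasts in both sets of arrays, and Jag1 moved from -0.27 in control arrays to -0.91 in knockout arrays.

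The rest of the pathway differed among the control cell types in both directions. Of 24 measured genes that cleave, modify, traffic or degrade Notch proteins, 10 were higher and 8 lower in ES cells than in fibroblasts, beside 39.8% of all genes higher and 23.8% lower. Adam10, the protease of the ligand-induced cut, differed by -2.19 ± 0.11 (adjusted p = 2.18e-08), and Aph1b, a gamma-secretase subunit, by -1.90 ± 0.10. In brain against fibroblasts 11 of these 24 were higher and 11 lower, beside 25.1% of all genes higher and 35.2% lower. The largest difference of the list was in Furin, the protease that cuts the receptor before it reaches the surface (-2.77 ± 0.11). Of 11 nuclear partners, 6 were higher and 4 lower in ES cells than in fibroblasts, with Rbpj, the DNA-binding partner, 1.24 ± 0.10 higher. Brain minus ES cells for Rbpj was -1.84 ± 0.10. Of 20 genes listed as targets, 7 were higher and 7 lower in brain than in fibroblasts, where 60.3% of all genes were called, and Hes1 differed by -1.96 ± 0.09.

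The comparison of knockout with control asked how loss of cyclin C affected RNA levels in each cell type. In fibroblasts the ligand Jag1 and the receptors Notch1 and Notch3 rose in the knockout, and no member fell. Jag1 read 8.79, 9.01 and 8.70 in the knockout arrays against 8.34, 8.51 and 7.94 in the controls. The lowest knockout array lay above the highest control array, and the control spread came mainly from array 3. The increase was 0.57 ± 0.13 (SE, 1.48-fold, 95% interval 0.27 to 0.87, limma adjusted p = 0.0245). Notch3 read 8.56, 8.96 and 8.80 in knockout arrays against 8.31, 8.42 and 8.41 in controls. The groups did not overlap, with knockout array 1 closest to the controls. The increase was 0.39 ± 0.09 (1.31-fold, 95% interval 0.18 to 0.60, adjusted p = 0.0248). Notch1 read 9.74, 9.77 and 9.81 against 9.52, 9.55 and 9.50. Both groups were tight, with SDs of 0.04 and 0.02, and lay clearly apart. The increase was 0.25 ± 0.05 (1.19-fold, 95% interval 0.14 to 0.35, adjusted p = 0.00959).

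Over all genes 12% were called in fibroblasts, 7.11% higher and 4.93% lower, against 3 of 9 members higher and 0 lower. Of the genes as a whole, 18.4% lay higher in every knockout array than in every control array, against 4 of 9 members, the fourth being Notch2 (9.10, 9.14 and 9.21 against 9.07, 9.02 and 9.09). Notch2 differed by 0.09 ± 0.05 and did not pass (95% interval -0.03 to 0.21, adjusted p = 0.345). The median difference of the 9 members was 0.20, beside 0.01 for all genes. Jag2 (0.22 ± 0.13, adjusted p = 0.329) and Dll3 (0.20 ± 0.12, adjusted p = 0.316) overlapped between the groups. Dll1 (-0.01), Dll4 (-0.04) and Notch4 (0.01) had adjusted p of 0.747 or more.

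The 3 increases did not rest equally firmly on the arrays. Notch1 kept its call when any 1 array was left out (adjusted p from 0.00950 to 0.0451). Jag1 kept it except without knockout array 2 (0.48, adjusted p = 0.103). Notch3 lost it without knockout array 2 or 3 or any 1 control array (adjusted p from 0.0617 to 0.0894) and kept it without knockout array 1 (0.50, adjusted p = 0.00341). In 1 fit of all 18 arrays none of the 3 passed (adjusted p = 0.403 for Notch1, 0.465 for Notch3 and 0.0840 for Jag1). That fit gives each gene a single spread for all groups, although the median spread was smaller in fibroblasts than in ES cells or brain. Within numbered pairs the increase was 0.45, 0.49 and 0.76 in Jag1, 0.21, 0.23 and 0.31 in Notch1, and 0.24, 0.53 and 0.40 in Notch3. Since the groups of these 3 members did not overlap, any pairing had to give increases, so their sign adds nothing.

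Markers of other cell types moved in the same arrays. The mean of 8 markers of mural cells and smooth muscle lay between 10.86 and 11.02 in knockout fibroblasts and between 10.62 and 10.77 in control fibroblasts, and 2 of the 8 rose (Myh11 by 0.93 and Cnn1 by 0.48). The mean of 8 fibroblast markers lay between 12.55 and 12.59 in the knockout and between 12.79 and 12.81 in the control, and 4 of the 8 fell. The mean of 8 endothelial markers was 7.07 to 7.15 in the knockout and 6.98 to 7.08 in the control, which overlapped, and 1 of the 8 rose. Lists of unrelated cell types shifted too. The mean of 8 neuron markers was 6.52 to 6.64 in the knockout and 6.44 to 6.46 in the control, with 1 up and 1 down. That of 5 oligodendrocyte lineage markers was 7.74 to 7.87 and 7.93 to 8.14, with 0 up and 1 down. Of 8 neural progenitor markers 2 rose and 0 fell, and the ranges of their means overlapped. Their part in the increase of Jag1, Notch1 and Notch3 was not tested.

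**Figure D3:**
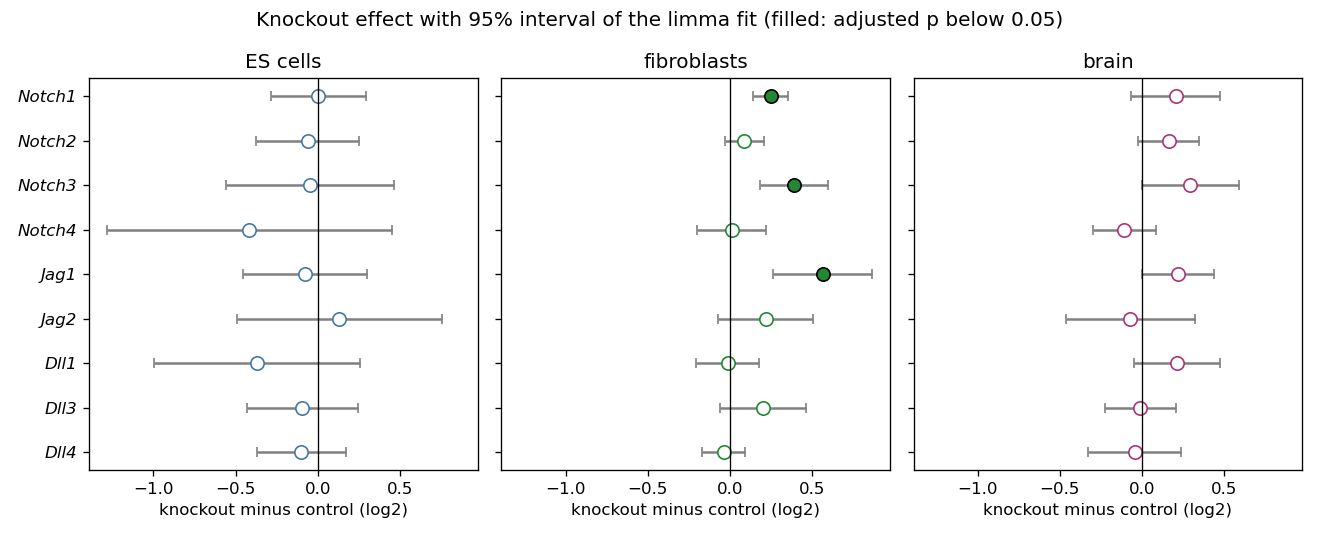
Knockout minus control (x axis, log2) for each member (y axis) for ES cells, fibroblasts and brain, with the 95% interval of the limma fit and filled points where the adjusted p was below 0.05. Filled points are Jag1 at 0.57, Notch3 at 0.39 and Notch1 at 0.25 in fibroblasts, and the intervals are widest in ES cells, where that of Notch4 ran from -1.28 to 0.45.

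The promoters of the 3 members that rose in knockout fibroblasts, and of Notch2 as a receptor that did not pass the test, are given from RefSeq (GRCm38.p6) as the 250 bases before the start of its promoter table, 5′ to 3′ on the strand of the gene. For Notch3 that start lies inside the outer end of the gene as annotated, so the last 6 bases of its window fall within the gene. Capitals mark the GC box GGGCGG on either strand, the motif bound by Sp-family factors. Notch1 (chr2:26503823-26504072, minus strand) held 5 GC boxes, Notch3 (chr17:32166891-32167140, minus strand) held 4, Notch2 (chr3:98013288-98013537, plus strand) held 5 and Jag1 (chr2:137116521-137116770, minus strand) held 0.
Notch1: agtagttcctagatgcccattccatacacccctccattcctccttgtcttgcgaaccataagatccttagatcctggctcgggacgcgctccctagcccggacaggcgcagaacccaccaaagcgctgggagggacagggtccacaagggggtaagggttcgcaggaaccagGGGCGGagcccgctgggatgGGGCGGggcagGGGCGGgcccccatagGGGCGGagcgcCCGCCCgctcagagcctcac
Notch3: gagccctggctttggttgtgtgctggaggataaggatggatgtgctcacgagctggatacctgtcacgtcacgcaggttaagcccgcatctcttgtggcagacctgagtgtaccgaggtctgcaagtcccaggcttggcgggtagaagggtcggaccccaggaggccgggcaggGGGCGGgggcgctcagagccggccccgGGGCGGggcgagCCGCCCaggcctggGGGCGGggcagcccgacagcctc
Notch2: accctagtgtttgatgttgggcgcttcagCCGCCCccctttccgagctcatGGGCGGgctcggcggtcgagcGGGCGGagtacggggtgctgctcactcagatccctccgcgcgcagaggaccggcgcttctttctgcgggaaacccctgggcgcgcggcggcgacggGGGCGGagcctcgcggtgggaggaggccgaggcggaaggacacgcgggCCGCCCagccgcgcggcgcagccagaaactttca
Jag1: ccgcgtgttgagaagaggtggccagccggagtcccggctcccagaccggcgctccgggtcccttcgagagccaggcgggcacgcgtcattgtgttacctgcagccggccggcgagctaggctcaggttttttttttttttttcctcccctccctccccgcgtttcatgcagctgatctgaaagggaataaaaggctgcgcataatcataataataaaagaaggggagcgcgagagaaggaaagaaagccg
The genes themselves lie at chr2:26457902-26503822 (Notch1), chr17:32120820-32166896 (Notch3), chr3:98013538-98150367 (Notch2) and chr2:137081451-137116520 (Jag1). In all, 10 windows matched the 9 members, Dll1 having 2, and 6 of the 10 held at least 1 GC box, against 32.7% of 32851 mouse promoters of the same length. The Jag2 window, which held 5 GC boxes, and 1 of the Dll1 windows lay wholly within the gene as annotated. The end of the Notch4 window also reached into its gene. The share of G and C bases ran from 52.0% (Dll3) to 87.2% (Jag2) in these windows, against a median of 52.4% over all promoters. Its part in the count of GC boxes was not tested. The core sequence TGGGAA of the RBPJ site, searched on both strands, was in 0 of the 10 windows and in 21.6% of all promoters. The 2 motifs cannot overlap each other by their letters, and a match or its absence in such a window says nothing of factor binding.

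In brain no member passed the test, and 0.00585% of all genes (1 gene) did. Jag1 read 7.48, 7.33 and 7.55 in knockout brain against 7.30, 7.11 and 7.30 in control brain. Every knockout array lay above every control array, by a mean of 0.22 ± 0.10 (adjusted p = 0.686, unadjusted p = 0.0520 by limma). Notch2 read 8.58, 8.65 and 8.56 against 8.37, 8.49 and 8.44, again without overlap, with a difference of 0.16 ± 0.08 (adjusted p = 0.716). Notch3 read 9.51, 9.41 and 9.40 against 9.30, 9.30 and 8.84, a difference of 0.29 ± 0.13 (adjusted p = 0.683) to which the low control array 3 contributed most. These 3 of 9 members lay higher without overlap, where 7.98% of all genes did.

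The other members in brain had differences between -0.11 (Notch4) and 0.21 (Dll1). Notch1 read 10.23, 10.02 and 9.86 in knockout brain against 9.83, 9.98 and 9.69 in control brain, which overlapped (0.20 ± 0.12, adjusted p = 0.746). With the replicate number as a block, 15 genes were called in brain instead of 1, none of them a member, and the members' adjusted p ran from 0.216 to 0.974. Notch2, Notch3 and Jag1 lay higher without overlap in both fibroblasts and brain, as did 1.05% of all genes. None of the markers of endothelium, mural cells or neurons passed in brain, and the ranges of their means overlapped between genotypes: those of endothelial markers were 8.27 to 8.37 in the knockout and 8.14 to 8.30 in the control, those of mural markers 7.91 to 8.05 and 7.82 to 7.93, and those of neuron markers 11.16 to 11.37 and 11.35 to 11.55. The mean of 7 ES cell markers did not overlap, at 6.85 to 6.88 in the knockout and 6.67 to 6.79 in the control, and 0 of the 7 passed. Their part in the members' values was not tested.

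**Figure D4:**
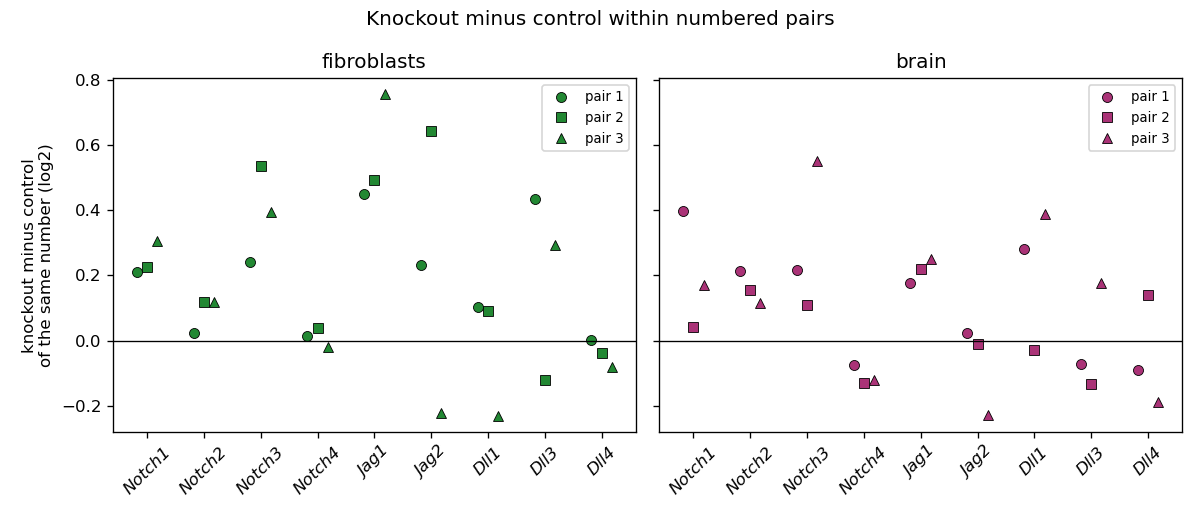
Knockout minus control of the same replicate number (y axis, log2) for each member (x axis) in fibroblasts and in brain, with 1 symbol per pair. Jag1 was above 0 in all 6 pairs, from 0.45 to 0.76 in fibroblasts and from 0.18 to 0.25 in brain, and Notch1, Notch2 and Notch3 were also above 0 in all 6. For Jag1, Notch2 and Notch3 in both panels, and for Notch1 in fibroblasts, the lack of overlap between groups fixed that sign in advance. The share of all genes above 0 in all 6 pairs was not computed, and no member passed the test in brain.

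In ES cells no member passed, and 0.0117% of all genes (2 genes) did. None of the 9 members had groups without overlap, where 15.6% of all genes did. The largest difference was in Notch4, which read 7.75, 8.50 and 8.84 in knockout arrays against 8.06, 9.04 and 9.26 in controls (-0.42 ± 0.37, 95% interval -1.28 to 0.45, adjusted p = 0.757). Each knockout array lay below the control array of its number, but the spread between arrays of 1 group was wider than the difference. Dll1 read 9.04, 8.56 and 8.61 against 9.70, 8.89 and 8.71 (-0.37 ± 0.27, 95% interval -0.99 to 0.26, adjusted p = 0.702). Jag1 (-0.08), Notch1 (0.01) and Notch3 (-0.04) showed no increase that passed, with intervals from -0.45 to 0.30 for Jag1, from -0.29 to 0.30 for Notch1 and from -0.56 to 0.47 for Notch3.

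The number 1 arrays set much of the spread in ES cells. In both genotypes array 1 was lowest in Notch4 (8.06 and 7.75) and highest in Jag2 (9.65 and 9.80), Dll1 (9.70 and 9.04) and Notch3 (10.68 and 10.70). The endoderm markers were at 7.72 in control array 1 and at 9.95 in knockout array 1, against 7.36 to 7.65 in the other ES cell arrays. Without both arrays the Notch4 difference was -0.47 (adjusted p = 0.479). The part of the endoderm markers in these values was not tested.

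**Figure D5:**
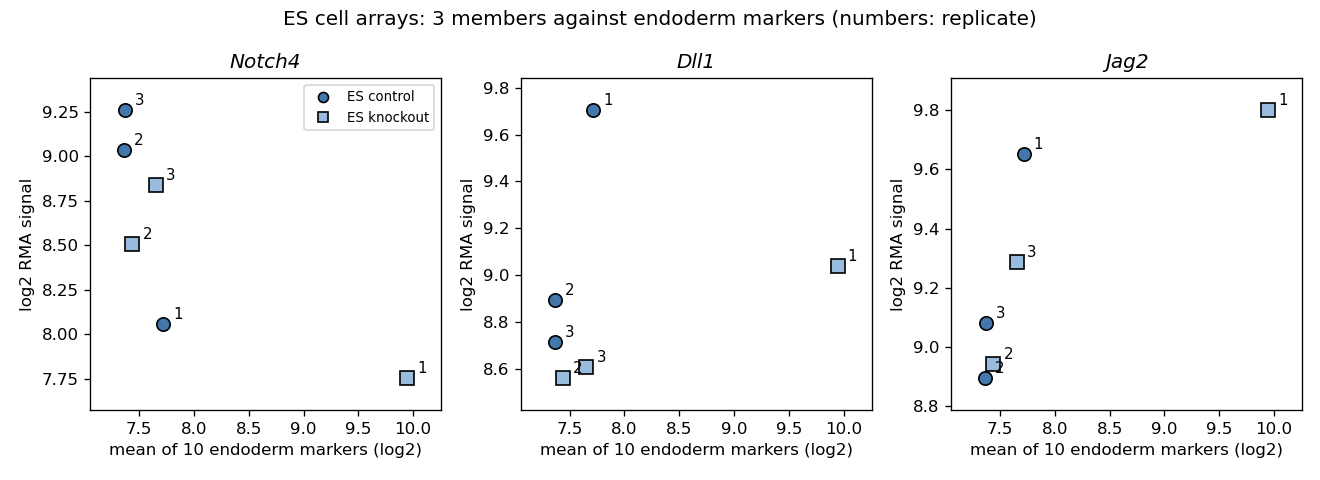
Log2 RMA signal of Notch4, Dll1 and Jag2 (y axis) against the mean of 10 extraembryonic endoderm markers (x axis, log2) in the 6 ES cell arrays, labelled by replicate number. The arrays numbered 1 of both genotypes lie apart from the rest, lowest in Notch4 and highest in Dll1 and Jag2, while only knockout array 1 was high in the endoderm markers at 9.95.

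Whether the knockout effect differed between cell types was tested directly over all 18 arrays, and no member passed. The largest difference was in Jag1, whose knockout effect was 0.64 ± 0.21 higher in fibroblasts than in ES cells (95% interval 0.20 to 1.09, unadjusted p = 0.00749, adjusted p = 0.165 by limma), where 0.995% of all genes passed. For Notch3 that difference was 0.44 ± 0.25 (adjusted p = 0.450). Between fibroblasts and brain the Jag1 effect differed by 0.35 (95% interval -0.10 to 0.79, adjusted p = 0.647) and the Notch1 effect by 0.04 (adjusted p = 0.980), where 0.334% of all genes passed. Between brain and ES cells Dll1 came nearest, at 0.58 ± 0.28 (adjusted p = 0.335), where 0.275% of all genes passed. The increases in fibroblasts were thus not shown to be particular to fibroblasts.

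Of the other pathway genes, some changed in knockout fibroblasts, where 7.11% of all genes were higher and 4.93% lower, and none but Ccnc passed in knockout ES cells and none in brain. Of the 24 genes for cleavage, modification, trafficking and degradation, 1 rose, Dtx4, a ubiquitin ligase of the Deltex family (0.33 ± 0.06, adjusted p = 0.00715), and 1 fell, Adam10 (-0.28 ± 0.05, adjusted p = 0.00962). Of 11 nuclear partners 0 rose and 1 fell, the acetyltransferase gene Kat2b (-0.18, adjusted p = 0.0449). Of 20 genes listed as targets 4 rose, namely Nfkb2 (0.25), Myc (0.31), Hes6 (0.24) and Id2 (0.37), and 1 fell, Gata3 (-0.47). Whether the listed genes responded to Notch in these cells was not tested. Myc encodes a growth-promoting transcription factor, Hes6 is known to oppose Hes1, and Id2 inhibits basic helix-loop-helix factors. Hes1, Hey1 and the other targets on the list did not pass. The median difference in fibroblasts was 0.08 over the target list, 0.06 over the 24 genes and 0.01 over all genes. Over the target list it was 0.096 in brain (0.001 over all genes) and -0.092 in ES cells (-0.033 over all genes). In the Mediator kinase module Cdk8, the kinase partner of cyclin C, rose by 0.37 ± 0.04 (adjusted p = 0.00121).

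The genes whose pattern over the 18 arrays was most like that of each member were listed by Pearson correlation among 8493 genes with group means at least 1 log2 unit apart. These correlations compare values of the same arrays, which fall into 3 cell types, so they rest mainly on the differences between cell types. Apart from Notch1 and Dll4, the number of genes above r = 0.9 ran from 104 (Dll1) to 474 (Notch2), with 202 for Dll3. Dll3 was closest to Olig1 (r = 0.979), a transcription factor gene of the oligodendrocyte lineage, then to Mapk4 (0.979) and Bzw2 (0.978). Notch2 was closest to Galnt18 (0.978), Golim4 (0.976) and the collagen gene Col6a3 (0.974). Jag1 was closest to Jph2 (0.954), Rrad (0.953) and Lif (0.948), a cytokine gene.

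For Notch3 the closest were Capn5 (0.973), Man2c1 (0.971) and Aasdh (0.965), and for Notch4 they were Dcaf12l1 (0.976), Atp11b (0.965) and Bclaf3 (0.964). For Jag2 they were Ddah2 (0.972), Aqp11 (0.969) and E4f1 (0.968), and for Dll1 they were Pde1b (0.951), Fkbp1b (0.943) and Pgbd5 (0.939). Notch1 and Dll4, the members that differed least among cell types, had no gene above 0.9: their closest were Nkain1 (0.819) and Syngr1 (0.822).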

How the data were processed

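RNA was measured on 18 arrays. The authors deposited log2 signals that RMA had summarised and scaled, per the submitters' processing notes; which version of RMA and which array were used, and if the 3 cell types were scaled jointly, is not stated. Of 24185 probe sets 64 were controls, and 22560 of the remaining 24121 matched 1 RefSeq symbol (GRCm38.p6). Each of 17091 genes was represented by its brightest probe set on average. Arrays give no read depth, and 3 arrays per group limit the precision.

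Tests used limma 3.58.1 (lmFit, then eBayes allowing a trend with intensity; R 4.3.3), with Benjamini-Hochberg adjustment over all genes. Each knockout comparison used the arrays of its cell type, contrasts between cell types used the 9 control or the 9 knockout arrays, and differences between knockout effects used all 18. The fits were also run on simulated data with independent noise in each array. Those data held no link between same-numbered arrays, so they say nothing of its effect on the tests. Plots were made in Python 3.11.15 (matplotlib 3.10.9).

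The members and gene lists were chosen with earlier results of these data known. Named genes were the 9 members, Ccnc, for each member the 3 genes of highest correlation, of which 1 is given for Notch1 and for Dll4, and up to 4 called genes per pathway list, of which a subset is given. Rbpj, Hes1 and Hey1 were named from the lists after their values were seen, as were the marker genes. Same-numbered control and knockout arrays deviated together in fibroblasts (correlation across genes 0.36, 0.16 and 0.19) and brain (0.29, 0.35 and 0.47), so the labels' numbers were taken to pair them there, on the values alone. The main fits left this pairing out. Standard errors, intervals and adjusted p come from those unpaired fits unless a block is named. Other settings tried were the replicate block, quantile normalization, only genes whose mean exceeded the 40th percentile, averaged probe sets, no intensity trend, 1 fit of 18 arrays and each array left out. A fit without both ES cell arrays numbered 1 was added after seeing the data.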

Additional observations from a re-analysis of the deposited data

Results flagged for a closer look

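The loss of Ccnc RNA differed between cell types by a test of the difference itself. The knockout effect on Ccnc was 1.07 log2 units smaller in fibroblasts than in ES cells (limma adjusted p = 0.0348). With 1 array left out, that adjusted p ran from 0.00533 to 0.0884, so the call did not hold in every such fit. The effect on Ccnc was 1.67 units smaller in brain than in ES cells (adjusted p = 0.00365, and 0.000257 to 0.0175 with 1 array left out). No member was singled out in this way, and groups of 3 arrays were not tested for outliers.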

How the results depend on the processing

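In 1 fit of 18 arrays the knockout called 632 genes in ES cells (2 in the cell type alone), 210 in fibroblasts (2058) and 0 in brain (1), and 0 members in fibroblasts (3). In ES cells the replicate block, the filter and the mean of probe sets each called 1 gene, and the fit without both arrays numbered 1 called 6. The replicate block called 15 in brain, and in fibroblasts 2960 (1759 higher and 1201 lower), with 3 members higher. The block changed no knockout call of a member, and it called Dll1 for control ES cells against fibroblasts (adjusted p = 0.0406). The numbers were not taken to pair those control arrays. Their same-numbered arrays correlated at only 0.02 to 0.11, although 5 of 6 correlated best with their own number. In ES cells same-numbered arrays of both genotypes correlated at 0.37, 0.32 and 0.08, and 5 of 6 arrays correlated best with their own number, a hint of shared structure from the data and not from the design. Since 1 of the 3 correlations was not above 0.1, the numbers were not taken to pair the ES cell arrays. Under the filter, which left Notch4, Dll3 and Dll4 untested, 8288 genes were called for control brain against ES cells (12601) and 3 members for control ES cells against fibroblasts (6). Differences between knockout effects gave 170 genes for fibroblasts against ES cells (553 without both arrays numbered 1) and 47 for brain against ES cells (25 after quantile normalization, 474 without both arrays), and 57 for fibroblasts against brain. Leaving out 1 array gave 0 to 6 genes in ES cells, 900 to 2609 in fibroblasts with 1 to 3 members, 1 to 2 in brain, and 30 to 391, 6 to 68 and 9 to 220 for the differences between effects of fibroblasts and ES cells, fibroblasts and brain, and brain and ES cells.

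None of the differences that changed sign had passed the test. After quantile normalization Notch1 was at -0.0365 for the ES cell knockout, -0.0282 for control ES cells against fibroblasts and -0.0391 for the effect in fibroblasts against brain, and Dll4 was at -0.0008 for the effect in brain against ES cells. Without both arrays numbered 1 Notch1 was at -0.11 for the ES cell knockout and Dll1 at -0.0277 for knockout ES cells against fibroblasts. With 1 array left out, the ES cell knockout ranged from -0.0747 to 0.0669 in Notch1, -0.14 to 0.0409 in Notch2, -0.22 to 0.15 in Notch3, -0.21 to 0.0554 in Jag1, -0.10 to 0.35 in Jag2 and -0.21 to 0.0051 in Dll3. The fibroblast knockout ranged from -0.074 to 0.081 in Notch4 and -0.0766 to 0.10 in Dll1, and the brain knockout from -0.21 to 0.11 in Jag2, -0.0863 to 0.0546 in Dll3 and -0.18 to 0.0377 in Dll4. Knockout ES cells against fibroblasts ranged from -0.0277 to 0.21 in Dll1. The effect in fibroblasts against brain ranged from -0.0456 to 0.14 in Notch1 and -0.0756 to 0.14 in Dll4, that in fibroblasts against ES cells from -0.14 to 0.31 in Jag2, and that in brain against ES cells from -0.43 to 0.0248 in Jag2, -0.015 to 0.20 in Dll3 and -0.0822 to 0.14 in Dll4. The cause of these changes was not tested. Each member had 1 probe set, so the planned fit of other probe sets gave no value. Signals of 3 members (Notch4, Dll3, Dll4) lay below the 40th percentile of gene means, and the distance to background is unknown.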

Other observations

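Noncanonical and related ligands, which bind Notch receptors or resemble their ligands without being Jagged or Delta-like proteins, differed among the control cell types. Of the 8 measured, 6 were higher and 2 lower in control brain than in control ES cells. Of all genes 73.7% were called there, 25.9% higher and 47.8% lower. Against control fibroblasts, 4 were higher and 2 lower in control brain, where 60.3% of all genes were called (25.1% higher, 35.2% lower). The list as a set was not tested. Dner, a transmembrane protein of neurons, was 5.72 ± 0.17 log2 units higher in brain than in ES cells (limma adjusted p = 2.89e-10), and the contactin gene Cntn1 was 4.83 ± 0.10 higher (adjusted p = 3.61e-11). Control ES cells minus fibroblasts was -3.78 ± 0.34 for Ccn3 and -1.96 ± 0.10 for Mfap2, both genes of extracellular matrix proteins (adjusted p = 2.92e-06 and 2.6e-08). In the knockout 1 of the 8 rose in fibroblasts, Egfl7, a secreted protein of endothelium (0.27, adjusted p = 0.0356), and 0 passed in ES cells or brain.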
